A study of Mus musculus with 8 samples.

Results

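Hic1, Ovca2 and Smg6 are 3 genes that follow each other on mouse chromosome 11, and their transcripts were measured in regulatory T (Treg) cells of the large intestine with and without the aryl hydrocarbon receptor, Ahr. They were taken by name from an RNA-seq table of 19191 gene rows, 1 row each, and all 3 passed the filter on low counts that left 14274 rows for testing. The other 24 rows that reach within 500 kb of the stretch from Smg6 to Ovca2 serve as the local reference, and 23 of them passed the same filter. The 3 genes were chosen by their position together with the count differences between KO and WT in this table, which were already known, so those differences are described here and not tested.

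The cells were sorted by flow cytometry from the large intestinal lamina propria of C57BL/6 mice, and total RNA was sequenced after removal of ribosomal RNA. Of the 8 samples of the series, only the 4 RNA-seq libraries are used, and chromatin accessibility (4 ATAC-seq samples) was not analysed here. KO mice had the genotype Ahrf/- Foxp3Yfp-Cre, with a floxed and a null Ahr allele, and WT mice had the genotype Ahrf/+ Foxp3Yfp-Cre, with a floxed and an intact allele (2 libraries each). Both groups therefore carried the floxed allele and the Cre recombinase, which is made from the Foxp3 locus and acts in Foxp3-expressing cells. After recombination WT Treg cells still hold an intact Ahr copy, and by these genotypes the other cells of KO mice lack an Ahr copy that those of WT mice have, so effects inside Treg cells and effects of the surrounding tissue cannot be told apart. The labels name no ages or sexes and do not state whether each replicate is a different animal, so the spread behind the p-values may be technical only.

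HIC1 (hypermethylated in cancer 1) is a transcriptional repressor with a BTB domain and zinc fingers, first known as a gene silenced by promoter methylation in tumours. In the mouse intestine it is made by T cells and innate lymphoid cells in response to retinoic acid, the vitamin A derivative that also imprints gut homing, and outside the immune system it marks mesenchymal cells. Smg6 encodes an endonuclease that cuts transcripts with premature stop codons in nonsense-mediated decay. Ovca2 encodes a protein of the serine hydrolase fold, named with its neighbour Dph1 (OVCA1) from a region lost in human ovarian tumours. Ahr binds DNA with its partner Arnt at sites with the core letters GCGTG.

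In the mm9 coordinates of the deposited table, Smg6 lies on the plus strand of chromosome 11 from 74739325 to 74977950, Hic1 on the minus strand from 74978067 to 74983021, and Ovca2 on the minus strand from 74989444 to 74992337. Smg6 and Hic1 run toward each other, and their annotated ends are 116 bp apart. Hic1 and Ovca2 point the same way with 6.42 kb between them. The Ovca2 span overlaps that of Dph1, on the same strand, by 1193 bp, and the start of Smg6 overlaps the start of Srr, on the opposite strand, by 126 bp. It is not stated how reads in such overlaps were counted or whether strand was used, which leaves the assignment of reads within these pairs uncertain.

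The promoter of Hic1 is shown because the gene was lower in KO and because its upstream window holds the Ahr core letters. In RefSeq (GRCm38.p6) Hic1 has 2 annotated starts, and the 250 bases before the outer start, chr11:75170256-75170505 on the minus strand, read as follows from 5′ to 3′ with GCGTG in capitals.
Hic1: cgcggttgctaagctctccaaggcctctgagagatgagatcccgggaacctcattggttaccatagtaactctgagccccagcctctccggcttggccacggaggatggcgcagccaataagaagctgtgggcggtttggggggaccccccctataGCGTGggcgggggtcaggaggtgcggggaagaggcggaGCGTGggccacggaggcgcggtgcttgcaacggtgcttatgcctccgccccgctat
GCGTG was searched on both strands, and it occurs here 2 times in the direction of the gene, beginning 94 and 56 bases before the start. The matching windows of the inner Hic1 start, of Ovca2, of Smg6 and of Dph1 hold 1, 1, 2 and 1 matches. Of 32851 promoter windows of 250 bases in the same set, 28.2% hold at least 1. A match describes the letters and is not a measured binding site.

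Hic1 was the member with the widest separation of the genotypes. Its level, in CPM (counts scaled to a library total of 1000000, after adjusting the libraries by the trimmed mean of M-values), was 36.7 and 34.1 CPM in KO replicates 1 and 2, against 66.4 and 57.7 CPM in WT replicates 1 and 2. Both KO libraries lay below both WT libraries, and the lowest WT value stood well above the highest KO value. The mean was 35.4 ± 1.84 CPM in KO and 62.0 ± 6.16 CPM in WT (SD, n = 2 each), a log2 fold change of -0.81 ± 0.12 (standard error from the edgeR fit, positive meaning higher in KO), or 42.9% lower. In sorted bulk samples, fewer cells that make a transcript and less of it per cell cannot be told apart. Within replicate 1 the log2 ratio of KO over WT was -0.85, and within replicate 2 it was -0.76. The raw counts behind these levels were 1126 and 1802 in KO and 1782 and 3671 in WT, so counting alone gives an error of 1.65% to 2.98% of the count in a library. The SD between replicates was 5.20% of the mean in KO and 9.93% in WT, larger than that counting error and smaller than the distance between the genotypes.

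Ovca2, next to Hic1, was lower in KO by a smaller amount. It stood at 45.6 and 40.8 CPM in KO and at 61.5 and 58.4 CPM in WT. The genotypes again did not overlap. The mean was 43.2 ± 3.43 CPM in KO and 59.9 ± 2.17 CPM in WT (SD, n = 2 each), a log2 fold change of -0.47 ± 0.11, or 27.9% lower. The log2 ratio was -0.43 within replicate 1 and -0.52 within replicate 2. Raw Ovca2 counts were 1400 and 2155 in KO and 1651 and 3719 in WT.

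Smg6, the long gene on the other side of Hic1, showed the smallest difference of the 3. Its level was 123.9 and 120.3 CPM in KO, against 146.6 and 140.9 CPM in WT. These groups did not overlap either, and replicates of a genotype were close to each other. The mean was 122.1 ± 2.50 CPM in KO and 143.7 ± 4.09 CPM in WT (SD, n = 2 each), a log2 fold change of -0.24 ± 0.08, or 15.0% lower. The log2 ratios within replicates 1 and 2 were -0.24 and -0.23.

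**Figure D1:**
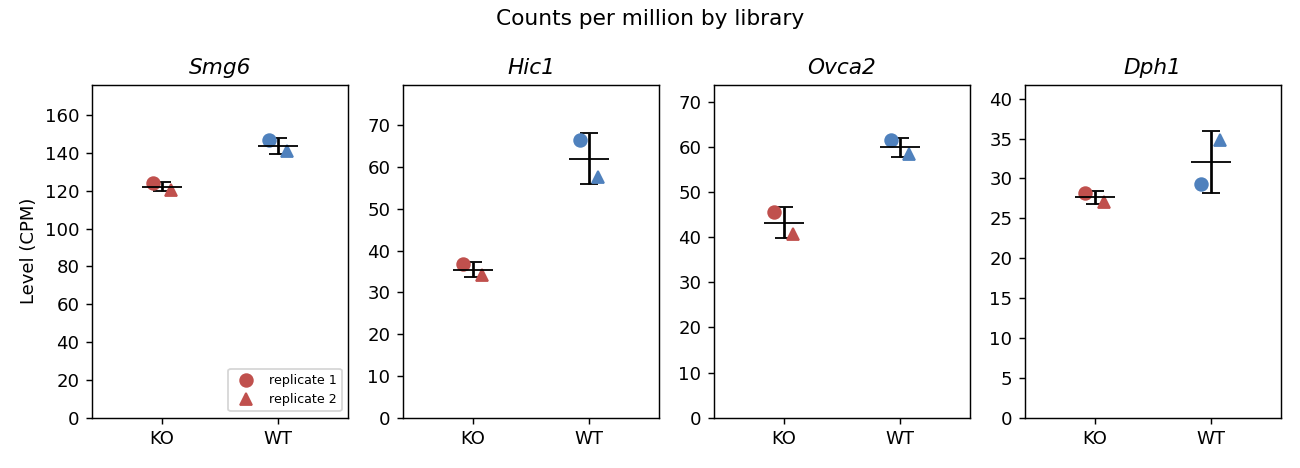
Level in CPM (vertical axes, each starting at 0 with its own range) of Smg6, Hic1, Ovca2 and the overlapping neighbour Dph1 in KO and WT libraries; circles are replicate 1, triangles replicate 2, and the horizontal mark with bars gives the mean ± SD of 2 libraries. The KO libraries lie below both WT libraries in each panel, by the widest margin for Hic1 (means 35.4 and 62.0 CPM) and by the narrowest for Dph1 (27.6 and 32.0 CPM).

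All 3 genes thus had both KO libraries below both WT libraries, as did 13.4% of the 14274 tested rows. DESeq2 called 1 of the 3 lower, Hic1 (adjusted p = 1.89e-04), where 0.107% of the 16871 rows with an adjusted p were called lower. Its adjusted p was 0.293 for Ovca2 and 1.00 for Smg6. In the authors' deposited table the adjusted p was 0.00981 for Hic1, 0.142 for Ovca2 and 0.783 for Smg6, and 0.344% of its 19191 rows were under 0.05. By edgeR's quasi-likelihood test with Benjamini-Hochberg adjustment no gene of the table was called (0%), although 407 genes had an unadjusted p under 0.05. When the replicate number was added to edgeR as a block, all 3 members were among the 1.28% of tested rows called lower. These values belong to the contrast with which the genes were chosen, so they describe the choice and add no support to it. Without WT replicate 2 DESeq2 still called Hic1 (adjusted p = 0.0366), but not without KO replicate 1 (0.0515), KO replicate 2 (0.866) or WT replicate 1 (0.571), in fits chosen after seeing the data that leave a genotype with 1 library. The log2 fold change of Hic1 itself stayed between -0.91 and -0.70 in those 4 fits.

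Ratios of raw counts between genes of the same library do not depend on how libraries are scaled to each other. There were 0.296 and 0.283 Hic1 counts per Smg6 count in KO, against 0.453 and 0.409 in WT. Per Ovca2 count there were 0.804 and 0.836 Hic1 counts in KO and 1.08 and 0.987 in WT. Hic1 was thus lower in KO relative to each of its flanking genes too, without overlap of the genotypes. The Ovca2 to Smg6 ratio was 0.368 and 0.339 in KO and 0.419 and 0.415 in WT. Set against Dph1, with which Ovca2 overlaps, there were 1.62 and 1.51 Ovca2 counts per Dph1 count in KO and 2.10 and 1.68 in WT. Such ratios compare a gene pair between libraries and say nothing of which gene is more abundant, since counts also grow with transcript length.

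**Figure D2:**
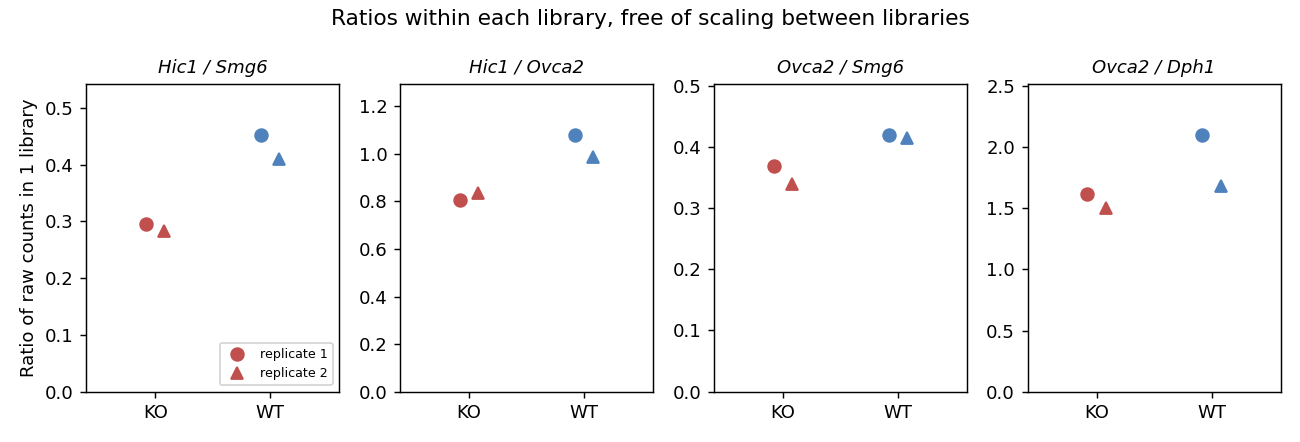
Ratio of raw counts of a gene pair within each library (vertical axes, starting at 0), for KO and WT; circles are replicate 1 and triangles replicate 2. Hic1 per Smg6 lies near 0.3 in KO libraries (0.296 and 0.283) and above 0.4 in WT libraries (0.453 and 0.409), and the genotypes do not overlap in any of the 4 panels.

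No neighbour had a log2 fold change as far from 0 as Hic1, and Serpinf1, at 0.52 ± 0.23, was the only one farther from 0 than Ovca2. None of the 23 tested neighbouring rows was called by edgeR (0 with an unadjusted p under 0.05), by DESeq2 (0.285% of all rows called in either direction) or in the authors' deposited table. Their median log2 fold change was -0.03, beside 0.0074 over all tested rows, and 15 of them were below 0 (65.2%, beside 48.0% of all tested rows). Among the 26 tested rows of the window, Hic1 had the lowest log2 fold change and Ovca2 the next, while Smg6 ranked only 7th from the lowest. Scarf1, Sgsm2, Rtn4rl1 and Smyd4, with log2 fold changes of -0.39 ± 0.55, -0.28 ± 0.11, -0.27 ± 0.18 and -0.24 ± 0.15, lay below Smg6 by less than their errors, and Scarf1 stood near 1 CPM or under it in every library. As shares of the summed counts of these 24 neighbouring rows, Hic1 was 2.25% and 2.02% in KO and 3.90% and 3.39% in WT, Ovca2 was 2.80% and 2.41% in KO and 3.61% and 3.43% in WT, and Smg6 was 7.60% and 7.13% in KO and 8.61% and 8.28% in WT.

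Closest to the members, Dph1, which encodes an enzyme of diphthamide synthesis, stood at 28.2 and 27.1 CPM in KO and at 29.3 and 34.8 CPM in WT. Its log2 fold change was -0.21 ± 0.12, with -0.05 within replicate 1 and -0.36 within replicate 2, and WT replicate 2 stood above the other 3 libraries. Srr, the serine racemase gene whose start overlaps that of Smg6, stood at 26.2 and 36.8 CPM in KO and at 24.6 and 33.3 CPM in WT, a log2 fold change of 0.12 ± 0.22, and followed the replicate more than the genotype. Both KO libraries lay below both WT libraries in 8 of the 23 neighbours, where 13.4% of all tested rows did so. These were 1300001I01Rik, Mnt, Sgsm2, Dph1, Rpa1, Smyd4, Pitpna and Inpp5k, and apart from Sgsm2 (-0.28 ± 0.11) and Smyd4 (-0.24 ± 0.15) their log2 fold changes ran from -0.22 to -0.02. Rpa1, a subunit of the protein that coats single-stranded DNA, stood at 111.6 and 124.0 CPM in KO and at 126.1 and 143.6 CPM in WT. The Max-binding repressor gene Mnt stood at 42.5 and 43.3 CPM in KO and at 48.9 and 44.5 CPM in WT. In 1 neighbour, Serpinf1, which encodes a secreted serpin, both KO libraries were above both WT libraries, as in 13.5% of all tested rows, with 5.41 and 4.69 CPM in KO and 3.13 and 3.86 CPM in WT. Of the other end of the range, Prpf8, a core subunit of the spliceosome, had 553.4 and 626.4 CPM in KO and 588.2 and 576.7 CPM in WT, and Pafah1b1, the dynein regulator LIS1, had 332.5 and 273.7 CPM in KO and 329.8 and 280.7 CPM in WT, and both overlapped between genotypes.

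**Figure D3:**
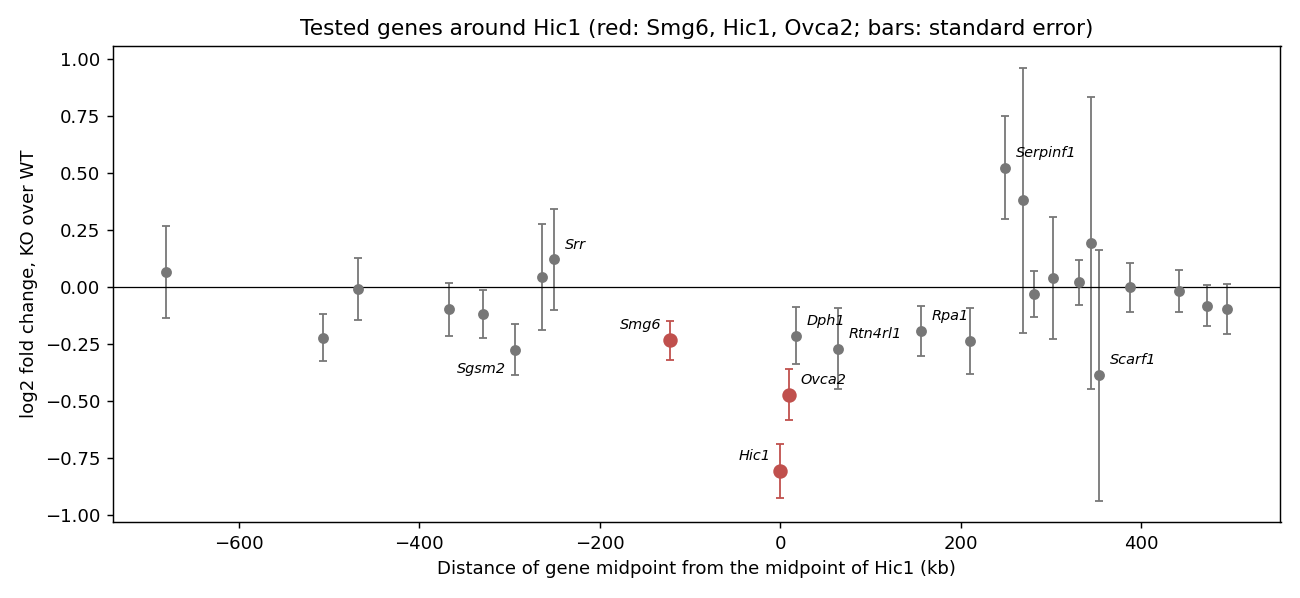
Log2 fold change of KO over WT with its standard error (vertical axis) for the 26 tested rows within 500 kb, placed by the distance in kb of each gene's midpoint from that of Hic1 (horizontal axis); Smg6, Hic1 and Ovca2 are red and the neighbours grey. Hic1 (-0.81) and Ovca2 (-0.47) are the lowest points, and Smg6 (-0.24) lies among its neighbours. The longest bars belong to Rilp, Serpinf2 and Scarf1, which have few counts.

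The genes whose levels over the 4 libraries were most like those of Hic1 were found by the Euclidean distance between log2 CPM values centred on each gene's mean, among 12251 other tested genes with a mean of at least 1 CPM. In order they were Itgb4, Abca5, Itgae, 1700029J07Rik and Slc2a6, at distances of 0.122 to 0.167 log2 units. Itgb4 (0.978 and 0.870 CPM in KO, 1.79 and 1.40 CPM in WT), Abca5 and 1700029J07Rik were near 1 or 2 CPM. Itgae, the integrin chain CD103 of cells in the gut lining, was abundant, with 111.5 and 93.2 CPM in KO and 202.1 and 158.1 CPM in WT. It lies on chromosome 11 from 72904085 to 72960948, outside the window of neighbouring rows. Its log2 fold change was -0.82 ± 0.16 (DESeq2 adjusted p = 0.00113, edgeR adjusted p = 0.882). In the authors' deposited table its adjusted p was 7.77e-06. Because Itgae was found by its likeness to Hic1, a difference of this size follows from the search, and these p-values add no support. Itgb4 and Abca5 are on chromosome 11 as well, 1700029J07Rik is on chromosome 8 and Slc2a6 on chromosome 2. A link between the Itgae and Hic1 differences was not tested. Slc2a6, a gene of the glucose transporter family, had 5.54 and 5.54 CPM in KO and 11.3 and 8.50 CPM in WT. Ovca2 ranked 64th in likeness to Hic1 (0.346) and Smg6 472nd (0.581). With 4 libraries, this likeness reflects only the order of the libraries and the size of the differences between them. Ovca2 and Smg6 ordered the libraries as Hic1 did, so their larger distances restate their smaller differences.

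**Figure D4:**
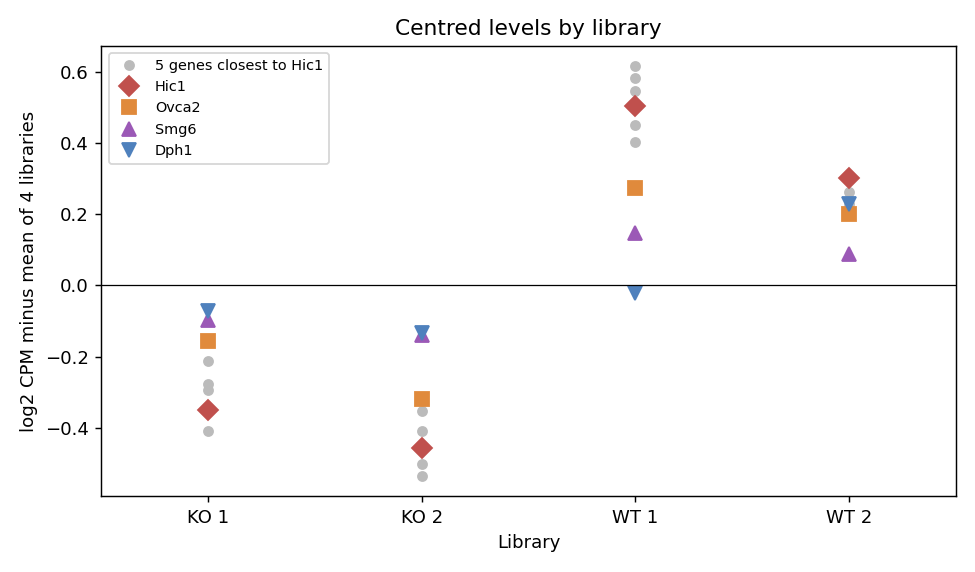
Log2 CPM of each gene minus its mean over the 4 libraries (vertical axis) in KO and WT libraries (horizontal axis) for Hic1, Ovca2, Smg6, Dph1 and, in grey, the 5 genes closest to Hic1. The 3 members lie below 0 in both KO libraries and above 0 in both WT libraries, with Hic1 farthest out, while Dph1 lies at -0.02 in WT replicate 1.

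Genes that work with HIC1, a list of 24 partners, targets and its paralogue, were described in the same way. Over the whole table edgeR called 0 of 14274 tested rows, 407 of which had an unadjusted p under 0.05, and DESeq2 called 0.285%. Beside these shares, 0 called in this list or in the lists that follow says nothing particular about their genes. Of 21 tested, 14 were above 0 and 7 below (33.3%, beside 48.0% of all tested rows). EdgeR and DESeq2 called 0 of them (0 with an unadjusted p under 0.05). The median log2 fold change was 0.08 beside 0.0074 over all tested rows. Its sign was not stable: the median log2 ratio was -0.06 within replicate 1 and 0.07 within replicate 2. Without WT replicate 2 the median log2 fold change was -0.01. The paralogue Hic2 had 14.1 and 11.3 CPM in KO and 16.1 and 12.9 CPM in WT, a log2 fold change of -0.19 ± 0.18. Among known partners, the chromatin remodeller subunit Arid1a had -0.16 ± 0.12 and the deacetylase gene Hdac2 had 0.12 ± 0.11. Hdac4, which the table lists in 2 rows, had 0.16 ± 0.16 in the row used and 0.11 ± 0.12 in the other. Sirt1, the deacetylase gene known as a target that HIC1 represses, was named after its value was seen. It stood at 108.3 and 114.3 CPM in KO and at 116.5 and 94.7 CPM in WT, overlapping between genotypes, and its log2 fold change was 0.08 ± 0.13 (95% interval of the fit -0.24 to 0.39).

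A list of other BTB zinc finger factors, a family that includes some T cell regulators, had 23 tested members, 8 above 0 and 15 below. Their median was -0.04, and edgeR and DESeq2 called 0 of them (1 with an unadjusted p under 0.05). That was Mynn, at 148.0 and 148.3 CPM in KO and 175.2 and 168.9 CPM in WT. Log2 fold changes were -0.22 ± 0.08 for Mynn, -0.27 ± 0.12 for Zbtb25, -0.52 ± 0.27 for Bcl6b and 0.29 ± 0.12 for Zbtb46. Both KO libraries lay below both WT libraries in 3 of the 23, Mynn, Zbtb25 and Bcl6b, and above them in 3, among them Zbtb46. These counts are near the shares over all tested rows, 13.4% below and 13.5% above.

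The retinoic acid pathway, which induces Hic1 in gut lymphocytes, had 28 list members, of which 20 were tested, 13 above 0 and 7 below, with a median of 0.05 and 0 called by edgeR or DESeq2 (1 with an unadjusted p under 0.05). That gene was Rarg, a retinoic acid receptor, with 37.6 and 38.4 CPM in KO and 30.0 and 32.0 CPM in WT (log2 fold change 0.29 ± 0.10, edgeR adjusted p = 1.00). Rara, the receptor studied most in T cells and named after its value was seen, had 87.0 and 101.9 CPM in KO and 94.7 and 93.5 CPM in WT. The retinol dehydrogenase gene Rdh10 had 0.30 ± 0.13, and the gut homing genes Ccr9 and Itga4, which retinoic acid induces, had 0.23 ± 0.15 and 0.20 ± 0.11. Ccr9 overlapped between genotypes, with a log2 ratio of 0.48 within replicate 1 and -0.03 within replicate 2. The widest values of this list, -1.16 and 1.11, belonged to Cyp26b1 and Crabp2, which stayed under 1 CPM in every library.

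Smg6 was set beside 27 other genes of nonsense-mediated decay, all tested. Of these, 12 were above 0 and 15 below, the median log2 fold change was -0.0034, the range was -0.26 to 0.19, and edgeR and DESeq2 called 0 (0 with an unadjusted p under 0.05). The log2 fold change of Smg6, -0.24, lay near the low end of that range. The lowest was Dhx34, a helicase of the pathway, with 26.6 and 29.7 CPM in KO and 34.5 and 33.2 CPM in WT (-0.26 ± 0.11). Magoh and Rbm8a, core parts of the exon junction complex, had 0.17 ± 0.10 and 0.19 ± 0.15, and Upf2 had -0.11 ± 0.11. The 8 genes of diphthamide synthesis, which include Dph1 and the target protein gene Eef2, were 5 above 0 and 3 below, median 0.03, with 0 called by edgeR or DESeq2 (1 with an unadjusted p under 0.05, Dph3, at 0.29 ± 0.11). Dph2 and Dnajc24 had -0.19 ± 0.12 and -0.18 ± 0.16.

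**Figure D5:**
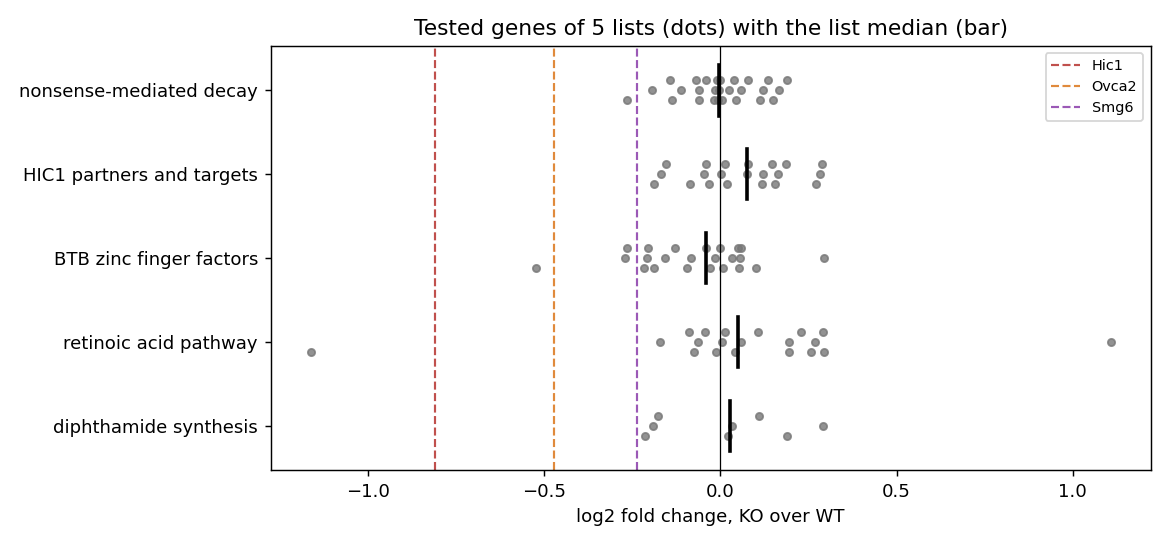
Log2 fold change of KO over WT (horizontal axis) for each tested gene (dot) of 5 lists (rows), with the list's median as a black bar and Hic1, Ovca2 and Smg6 as dashed lines. List medians lie between -0.04 and 0.08, and Hic1 at -0.81 lies below every listed gene except Cyp26b1 (-1.16).

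The libraries and the purity of the sort bear on these values. Total counts ran from 26862922 to 62402450, with replicate 2 the deeper library of each genotype. Treg markers summed to 7620 and 7077 CPM in KO and 6773 and 6457 CPM in WT. The largest part was Ctla4, at 3773 and 3620 CPM in KO and 3196 and 3045 CPM in WT. Foxp3 stood at 250.1 and 258.9 CPM in KO and 279.6 and 251.8 CPM in WT. Of the 8 Treg markers, 5 had a log2 fold change above 0 and 3, Foxp3 among them, below 0. Counts over the whole Ahr gene were 536.0 and 518.0 CPM in KO and 580.8 and 538.7 CPM in WT, which checks neither the deletion nor the labels, since a transcript that lacks an exon is still counted. HIC1 is also made by stromal cells, and the 9 stromal markers other than Thy1, which mouse T cells express too, summed to 10.7 and 79.8 CPM in KO and 13.0 and 66.6 CPM in WT, so they differed by replicate and not by genotype. With Thy1 all 10 markers summed to 347.3 and 353.8 CPM in KO and 285.2 and 305.4 CPM in WT. Innate lymphoid cells make HIC1 as well, and the 6 markers of that list, several of which Treg cells share, summed to 1458 and 1286 CPM in KO and 1460 and 1331 CPM in WT, while Kit in that list was 6.16 and 4.92 CPM in KO and 12.3 and 10.7 CPM in WT (DESeq2 adjusted p = 0.0276, edgeR adjusted p = 0.856). Ncr1 was the list's only gene under 1 CPM in every library. Myeloid markers summed to 81.5 and 44.2 CPM in KO and 104.1 and 55.6 CPM in WT, and B cell markers to 16.2 and 12.2 CPM in KO and 17.0 and 18.7 CPM in WT. Epithelial markers summed to 19.4 and 30.4 CPM in KO and 19.5 and 19.6 CPM in WT. Of the 8 tested, 5 had both KO libraries above both WT libraries, as did 13.5% of all tested rows. In 2 they were below, as in 13.4% of all tested rows. Krt8 was 1.01 and 3.86 CPM in KO and 0 and 0.126 CPM in WT (DESeq2 adjusted p = 7.50e-04, edgeR adjusted p = 1.00), and Krt19 and Car1 were also above in KO. Epcam was 12.2 and 13.7 CPM in KO and 14.7 and 14.5 CPM in WT, and Krt18 was 1.43 and 1.53 CPM in KO and 2.01 and 2.26 CPM in WT. Endothelial markers summed to 107.6 and 117.3 CPM in KO and 109.8 and 120.5 CPM in WT, mostly from Pecam1, which T cells also make. No marker of these lists was at 0 in every library, and the part of other cells in the Hic1 difference was not tested.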

How the data were processed

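Raw read counts per gene, as deposited by the authors, were analysed; they are whole numbers with no normalization, listed with mm9 positions. TopHat2, DESeq and mm9 are named, without versions, in the submitters' processing notes. No source used here states the counting tool, the annotation or the use of strand. An adjusted p-value that the authors deposited beside the counts was taken to compare KO with WT, which the table does not state. Columns were matched to samples by title, 2 libraries per genotype.

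All tests were fitted on the whole table with edgeR 4.0.16 in R 4.3.3, as a quasi-likelihood F-test on genotype after filterByExpr (14274 of 19191 rows kept) and TMM scaling, with a Benjamini-Hochberg adjusted p under 0.05 and an SE equal to the log2 fold change divided by the root of F. CPM are counts per 1000000 of the TMM-scaled total, and log2 ratios within a replicate used a prior count of 2. DESeq2 1.42.0 and limma 3.58.1 (voom) were alternatives, and scripts were tested on simulated data. Lists were described by counts and medians.

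The members and lists were chosen with earlier results of these data known. Named genes were the 3 members, rows next to them, neighbours without overlap of the genotypes, up to 4 genes of lowest p per list, and the 5 genes most like Hic1. Some genes within that rule are left out. Scarf1, Rtn4rl1, Prpf8, Pafah1b1, Sirt1, Rara, Kit, Cyp26b1 and Crabp2 were named after their values were seen. Promoter sequence came from RefSeq (GRCm38.p6), matched by symbol for all 3 members.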

Additional observations from a re-analysis of the deposited data

How the results depend on the processing

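All 3 members kept a negative log2 fold change in each of 15 alternatives run (size factors, library totals, no filter, a stricter filter of 2 CPM in 2 libraries, DESeq2, limma-voom, the replicate block and the fits by edgeR and DESeq2 without a library). It ran from -0.91 to -0.70 for Hic1, from -0.57 to -0.39 for Ovca2 and from -0.27 to -0.20 for Smg6, and for Ovca2 the fits without KO replicate 1 moved it by more than the SD between replicates (-0.57 in edgeR and in DESeq2). The 3 members were chosen with this difference known and did not overlap between genotypes, so a kept sign adds no support. Called neighbours stayed at 0 in all 12 alternatives. Genes called over the table were 0 in edgeR, 0 at an adjusted p under 0.1, 0 in limma-voom, 48 in DESeq2 and 52 in edgeR with no filter. Without the filter, edgeR called Hic1 (adjusted p = 0.0048) but neither Ovca2 (0.341) nor Smg6 (1.00), and over all alternatives the adjusted p of Hic1 ran from 8.54e-09 to 1.00. The cause of these shifts was not tested. Same-numbered libraries deviated together (correlation 0.641 over tested genes), but the labels do not say what a number marks. The edgeR fit with a replicate block called 458 genes, 183 of them lower (1.28% of tested rows) and among these all 3 members (Hic1 8.54e-09, Ovca2 1.03e-04, Smg6 0.0356). Of the 5 gene lists it called only Zbtb25, lower (adjusted p = 0.0233), and Dph3, higher (0.0449). In that fit 6 of the 23 tested neighbours had an unadjusted p under 0.05, beside 1884 of 14274 tested rows. That fit has 1 residual degree of freedom. The lowest count of Hic1, the member with the fewest reads in that library, was 1126, and depth was not varied.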
